A study of Homo sapiens with 15 samples.

Results

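The genes described here are IGF2BP1, IGF2BP2, IGF2BP3, LIN28B, HMGA1 and HMGA2. As a group they are known as abundant in the embryo, lower in adult tissue and often high again in tumours, though IGF2BP2 is also found in adult tissue. All 6 symbols were found among the 12995 genes of the deposited tables. They were picked with their levels in the cell lines already known, so the differences between lines given below are a description and carry no test. The changes after knockdown of YBX1 were tested across all genes. The data were RNA libraries of 3 lines, with 3 libraries in each of 5 groups. OKF6 is a wild type line of normal oral epithelium, grown in keratinocyte serum-free medium. SCC25 is an oral cancer line of the basal subtype, grown in the same medium, and SCC15 is an oral cancer line of the mesenchymal subtype, grown in DMEM with serum, so that line and medium cannot be told apart where SCC15 is compared with the others. Cells of both cancer lines had been given Cas9 together with guide RNA to YBX1 whose expression doxycycline induces. They were sorted as pools for the mCherry and GFP reporters of these vectors. The paper does not say which of its listed guide sequences the sequenced pools carried. The −YBX1 groups received doxycycline at 1 µg/ml for 3 days, and the +YBX1 groups, which carried the same constructs, received none. OKF6 carried neither construct, and doxycycline itself and loss of YBX1 cannot be told apart, since no group received doxycycline without a guide against YBX1.

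The IGF2BP proteins bind mRNAs in the cytoplasm, read N6-methyladenosine (m6A) marks and protect the bound messages from decay, and YBX1 is one of the proteins found with IGF2BP1 on such mRNAs. LIN28B binds the precursors of the let-7 microRNAs and blocks their maturation. Mature let-7 in turn represses mRNAs that carry its target sites, the IGF2BP, LIN28B and HMGA2 mRNAs being textbook examples. HMGA1 and HMGA2 are small chromatin proteins that bind the minor groove of AT-rich DNA through AT-hooks. Mature let-7 was not measured in these libraries, which read the 3′ ends of polyadenylated RNA.

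The sequences that tie the 6 genes together are those of let-7 and of its possible sites, and 3 of the 11 mature microRNAs with the let-7 seed in RefSeq (GRCh38.p14), which come from 14 loci, are shown first. Capitals mark the seed, bases 2 to 8 counted from the 5′ end.
let-7a-5p: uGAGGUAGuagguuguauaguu
let-7i-5p: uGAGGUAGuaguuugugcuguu
miR-98-5p: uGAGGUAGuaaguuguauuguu
The seed was the same in these 3, while let-7i-5p differed from let-7a-5p at 4 bases outside it and miR-98-5p at 2. The reverse complement of the seed, CTACCTC, was searched on the sense strand of the 3′ untranslated region (UTR) of the canonical transcript of each gene in GENCODE 44. Every member held the match, against 9.71% of 19228 canonical 3′ UTRs. The first match of each member, counted from the stop codon, is given with the bases around it on the sense strand, with the match in capitals and hg38 positions.
IGF2BP1, chr17:49051062-49051083, plus strand, exon 15: gtgtgcgaagtaaaCTACCTCa
IGF2BP2, chr3:185644220-185644241, minus strand, exon 16: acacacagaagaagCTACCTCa
IGF2BP3, chr7:23311795-23311816, minus strand, exon 15: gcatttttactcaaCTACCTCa
LIN28B, chr6:105078813-105078834, plus strand, exon 4: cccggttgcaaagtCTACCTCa
HMGA1, chr6:34245830-34245851, plus strand, exon 6: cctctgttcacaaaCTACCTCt
HMGA2, chr12:65963299-65963320, plus strand, exon 5: ccaacgttcgatttCTACCTCa
All 6 lie in the last exon of their gene. In each site except that of HMGA1 the base after the match was an a.

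The number of matches split the members. The 3′ UTR of HMGA2 held 4 matches in 2999 bases, that of LIN28B held 4 in 4549 bases and that of IGF2BP1 held 4 in 6701 bases. Of all 19228 canonical 3′ UTRs, 12 (0.0624%) held 4 or more. Among 3′ UTRs of similar length (within 20%), as many matches were found in 0.0904% of 2212 for HMGA2, in 0.196% of 1528 for LIN28B and in 0.533% of 751 for IGF2BP1. IGF2BP2, IGF2BP3 and HMGA1 held 1 match each, in 2401, 2153 and 1347 bases, and 12.8%, 12.3% and 8.39% of 3′ UTRs of like length held at least 1. The members with 4 matches are also those whose group means spanned over 2 log2 units. This describes 6 genes chosen with their levels known, textbook let-7 targets among them. The 3 members with 4 matches did not share a direction. Taking SCC15 +YBX1 minus SCC25 +YBX1, the log2 difference was positive for IGF2BP1 (2.97) and LIN28B (5.16) but negative for HMGA2 (-2.06). Whether match number and level are linked was not tested. A match is a stretch of letters and not a shown site of repression.

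The libraries held between 4075290 and 6118501 reads on genes, and 1 read was worth 0.138 to 0.226 CPM, the count scaled to a common library size. Values are log2 CPM as deposited, on a scale where 0.5 reads were added to each count. All values gave back a whole number of reads. Each read of this protocol stands for a 3′ end, so that longer transcripts give no more reads, but 3′ ends differ in how well they are captured, and levels are compared between lines and not between genes. OKF6 libraries lay farthest apart, with a root mean square distance to the other replicates of 0.560 to 0.877 against 0.264 to 0.547 elsewhere, and OKF6 replicate 1 lay farthest. The labels do not say that replicates were separate cultures, so errors and p-values measure the spread between these samples. All 8 keratinocyte markers (KRT5, KRT14, KRT17, TP63, CDH1, ITGB4, COL17A1 and DSG3) were measured, and their summed level was 10338 to 21861 CPM in OKF6, 5129 to 11953 CPM in SCC25 +YBX1 and 3.88 to 26.5 CPM in SCC15 +YBX1, where TP63 had at most 1 read. All 8 were lower in SCC15 than in OKF6 (limma, 100% beside 50.3% of all genes) and than in SCC25 (100% beside 43.6%). In SCC25 1 was lower than in OKF6 (12.5% beside 30.2%). These 8 keratinocyte markers were thus nearly absent from SCC15, and epithelial markers outside the list were not examined here. Of the 6 fibroblast markers 2 were measured, at a sum of 29.1 to 44.5 CPM in OKF6, 11.3 to 30.2 in SCC15 +YBX1 and 21.9 to 97.9 in SCC25 +YBX1. Of these, 1 was higher and 0 lower in SCC15 than in OKF6, 1 higher and 1 lower than in SCC25, and 0 differed between SCC25 and OKF6. The higher gene was LUM, named after its values were seen. It had 2 to 15 reads per library in SCC15 +YBX1, 0 in OKF6 and 0 to 1 in SCC25 +YBX1. Of the 4 leukocyte and endothelial markers 1 was measured, CD68, at 0.154 to 1.09 CPM in SCC15 +YBX1, lower than in OKF6 and SCC25, where it stood at 8.12 to 39.3 CPM. The part of these markers in the differences below was not tested. As in any bulk sample, fewer expressing cells and less RNA per cell cannot be told apart.

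IGF2BP1 (ENSG00000159217, chromosome 17, 48997385 to 49056145, plus strand, hg38) is the member best known for shielding MYC and other messages from decay. It was nearly silent in OKF6, with 2, 0 and 6 reads in the 3 libraries and log2 CPM values of -1.06, -3.15 and 0.13. In SCC15 +YBX1 it read 8.91, 8.57 and 8.43, and in SCC25 +YBX1 5.42, 5.71 and 5.89. The 3 lines did not overlap. The mean was 8.64 ± 0.24 (SD, n = 3) in SCC15 and 5.67 ± 0.24 (SD, n = 3) in SCC25, a log2 difference of 2.97 (SE 0.64, limma). In summed reads, 7137 in SCC15 against 8 in OKF6 gave a ratio of 776, with an exact 95% counting interval of 394 to 1798. For SCC25, 776 reads against 8 gave a ratio of 99.4, with an interval of 50.2 to 231. Of 86 pieces of 75 bases, the read length, taken from the last 500 bases of its transcript, 15 matched another place in hg38 in at least 71 bases and 0 in every base. The intervals, and the floors below, cover counting error alone.

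IGF2BP2 (ENSG00000073792, chromosome 3, 185643130 to 185825042, minus strand), the family member most often found in adult tissue and linked to metabolism, was lowest in SCC15, the line where IGF2BP1 was highest. It read 8.18, 7.40 and 7.44 in OKF6, 7.78, 7.66 and 7.90 in SCC25 +YBX1, and 6.64, 5.96 and 5.85 in SCC15 +YBX1. SCC15 lay below both other lines without overlap, with log2 differences of -1.52 from OKF6 (SE 0.26) and -1.63 from SCC25 (SE 0.26). OKF6 and SCC25 overlapped, with a difference of 0.11 (SE 0.26).

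IGF2BP3 (ENSG00000136231, chromosome 7, 23310209 to 23470491, minus strand), a widely used tumour marker, differed least within its family. It was highest in the normal line, at 5.60, 5.29 and 5.62, against 5.12, 4.46 and 5.12 in SCC15 +YBX1 and 4.44, 4.23 and 4.60 in SCC25 +YBX1. The cancer lines overlapped each other and both lay below OKF6, SCC15 by a log2 difference of -0.60 (SE 0.25) and SCC25 by -1.08 (SE 0.25). The gap of SCC15 to OKF6 closed with library medians set equal, where the libraries overlapped. Between SCC15 and SCC25 the log2 difference was 0.47 (SE 0.25), and with equal medians or quantile normalization their libraries no longer overlapped (0.63 and 0.65). The 3′ end of IGF2BP3 overlaps MALSU1 on the opposite strand, and whether the counting used strand is not given in the sources used here. Of the 86 pieces from that end, 79 matched another place in hg38 in at least 71 bases, 3 of them in every base.

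The ratio between the paralogs differed between the cancer lines. It is read as a change between lines, since its sign also depends on how well each 3′ end is captured. Per library, the log2 ratio of IGF2BP1 to IGF2BP2 reads was 2.27, 2.61 and 2.58 in SCC15 +YBX1 and -2.36, -1.96 and -2.01 in SCC25 +YBX1. In OKF6 it was -9.24, -10.54 and -7.31, values that rest on the few IGF2BP1 reads there. The mean ratio differed by 4.60 (SE 0.17) between SCC15 and SCC25. The ratio of IGF2BP3 to IGF2BP2 ran from -1.25 ± 0.45 (SD, n = 3) in SCC15 over -2.17 ± 0.38 (SD, n = 3) in OKF6 to -3.36 ± 0.07 (SD, n = 3) in SCC25, with no overlap between the lines. Since both genes of a ratio are read in the same library, these ratios do not depend on how the libraries were scaled.

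**Figure D1:**
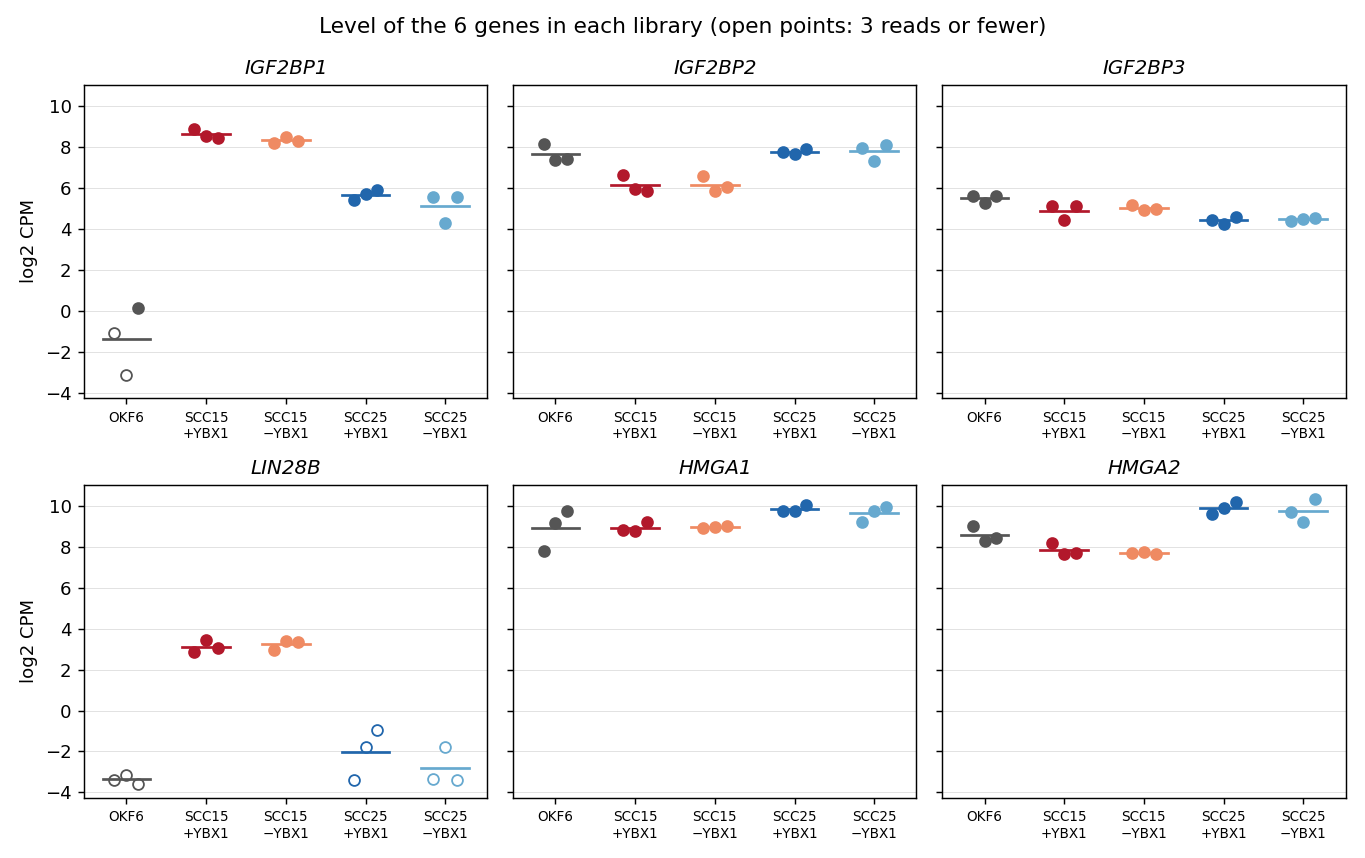
Level of each gene (log2 CPM) in each of the 15 libraries, by group, with a bar at the mean of 3 libraries and open points where a library held 3 reads or fewer. IGF2BP1 falls from SCC15 over SCC25 to OKF6, LIN28B stands above 3 reads in the SCC15 groups alone, and the +YBX1 and −YBX1 groups of a line lie side by side.

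LIN28B (ENSG00000187772, chromosome 6, 104936616 to 105083332, plus strand) was detected in quantity in SCC15 only. OKF6 had 0 reads in all 3 libraries, which with a floor of 3 reads allows up to 0.677 CPM in the shallowest library. SCC25 +YBX1 had 0, 1 and 2 reads. SCC15 +YBX1 read 2.88, 3.44 and 3.04 on the log2 scale, and the 3 libraries held 157 reads in sum. Against the OKF6 floor the level in SCC15 was at least 12.9-fold higher. Against SCC25 the ratio of summed reads was 44.4, with an exact 95% counting interval of 14.9 to 218. The mean in SCC15 +YBX1, 3.12 log2 CPM, lay below the median gene of each of those libraries, at 4.02 to 4.10. Of the 86 pieces from its 3′ end, 71 matched another place in hg38 in at least 71 bases and 23 in every base, so that some LIN28B reads may have been placed elsewhere or left out by the aligner.

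HMGA1 (ENSG00000137309, chromosome 6, 34236873 to 34246231, plus strand), the member with the highest mean over all libraries, did not separate SCC15 from OKF6. OKF6 read 7.80, 9.17 and 9.74, with replicate 1 far below the other two, SCC15 +YBX1 8.84, 8.78 and 9.20, and SCC25 +YBX1 9.75, 9.78 and 10.04. SCC25 lay above both lines without overlap, by 0.95 against OKF6 (SE 0.40, or 0.40 with SE 0.21 without OKF6 replicate 1), while the difference of SCC15 from SCC25 was -0.92 (SE 0.40). The highest OKF6 and the lowest SCC25 library nearly touched, and they overlapped under quantile normalization. Between SCC15 and OKF6 the log2 difference was 0.04 (SE 0.40), and it was -0.52 (SE 0.21) without OKF6 replicate 1. YBX1 was also lowest in that OKF6 library, at 6.76 against 8.15 and 8.37. Of the 86 pieces from the 3′ end of HMGA1, 78 matched elsewhere in hg38 in at least 71 bases, 1 of them in every base.

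HMGA2 (ENSG00000149948, chromosome 12, 65824460 to 65966291, plus strand), linked in carcinomas to invasion and mesenchymal traits, was highest in the basal line and lowest in the mesenchymal one. SCC25 +YBX1 read 9.60, 9.92 and 10.22, OKF6 9.01, 8.30 and 8.42, and SCC15 +YBX1 8.20, 7.66 and 7.70. The 3 lines did not overlap, though SCC15 and OKF6 overlapped with library medians set equal. SCC25 exceeded OKF6 by 1.34 log2 units (SE 0.26). The log2 difference of SCC15 was -2.06 from SCC25 (SE 0.26) and -0.72 from OKF6 (SE 0.26). None of the pieces from the 3′ ends of HMGA2 and IGF2BP2 matched elsewhere. The ratio of HMGA2 to HMGA1 within a library was -0.63, -1.12 and -1.50 in SCC15 +YBX1 and -0.15, 0.14 and 0.18 in SCC25 +YBX1, without overlap. In OKF6 it ran from -1.32 to 1.21 and overlapped both. The ratio of HMGA2 to IGF2BP2 was steady among OKF6 libraries, at 0.84, 0.90 and 0.98, although their levels of the single genes differed more. It was higher in both cancer lines, at 1.56, 1.70 and 1.85 in SCC15 and 1.82, 2.26 and 2.32 in SCC25, which overlapped each other.

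Counted together, 4 of the 6 members passed an adjusted p of 0.05 (limma, Benjamini-Hochberg over all genes) between SCC15 and OKF6, IGF2BP1 and LIN28B higher and IGF2BP2 and HMGA2 lower, where 50.3% of all genes did. Between SCC25 and OKF6, 3 passed, IGF2BP1 and HMGA2 higher and IGF2BP3 lower, beside 30.2% of all genes (2450 higher and 1473 lower, or 2006 and 1837 under quantile normalization). Between SCC15 and SCC25, 4 passed, IGF2BP1 and LIN28B higher in SCC15 and IGF2BP2 and HMGA2 lower, beside 43.6%. The libraries did not overlap for 5, 4 and 5 members in these comparisons, and for 54.4%, 43.3% and 66.6% of all genes. Because the members were chosen on these differences, nothing is read from the counts. HMGA2 between SCC15 and OKF6 was the call that depended on settings. It was lost with library medians set equal, with only the compared groups in the fit and without the variance trend. It was also lost without OKF6 replicate 1 (-0.51), SCC15 +YBX1 replicate 2 (-0.63) or SCC15 +YBX1 replicate 3 (-0.64). Just outside the threshold were IGF2BP3 between SCC15 and OKF6 and HMGA1 in both comparisons with SCC25, of which that with SCC15 passed once the compared groups alone were fitted. IGF2BP3 passed without OKF6 replicate 2 (-0.71), HMGA1 between SCC25 and OKF6 without OKF6 replicate 3 (1.37), and LIN28B between SCC25 and OKF6 without SCC25 +YBX1 replicate 1, a fit that rests on 3 reads in SCC25.

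**Figure D2:**
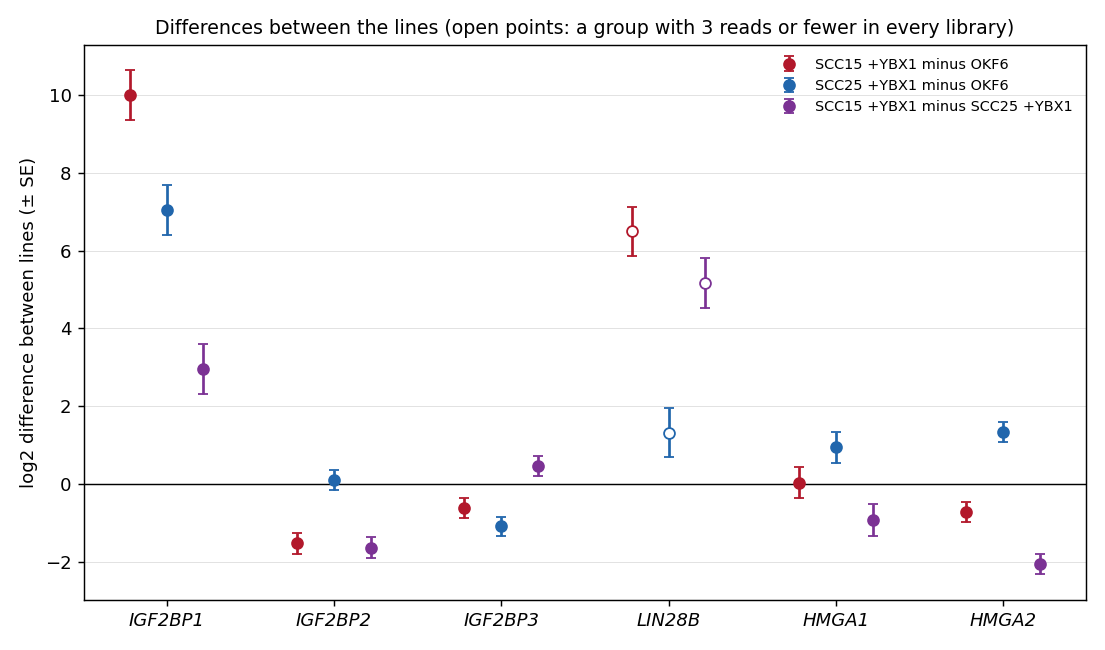
Difference between lines (log2, with the limma standard error as bars) for the 6 genes in the 3 comparisons of +YBX1 lines and OKF6. IGF2BP1 is higher in both cancer lines, HMGA2 lies on opposite sides of 0 in SCC15 and SCC25, and the open LIN28B points depend on the 0.5 reads added where a group had almost no reads. The filled IGF2BP1 points against OKF6, with 0 to 6 reads per library there, depend on them too. With 2 reads added in place of 0.5, 10.00 became 9.01 in SCC15 and 7.03 became 6.05 in SCC25.

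The targeted gene checks the knockdown. YBX1, a Y-box protein that binds DNA and RNA, read 5.11, 5.56 and 6.00 in SCC15 +YBX1 and 3.36, 3.71 and 3.13 in SCC15 −YBX1. In SCC25 it read 6.74, 6.31 and 6.62 without and 5.26, 4.70 and 3.65 with doxycycline. The groups did not overlap in either line. The log2 changes were -2.15 (SE 0.35, limma adjusted p = 0.326) and -2.01 (SE 0.35, limma adjusted p = 0.290). No gene of the table passed 0.05 in either line, with 302 and 401 genes at an unadjusted p under 0.05, and none did with voom weights on the recovered reads. Without SCC25 −YBX1 replicate 2, 6 genes passed in SCC25, all lower.

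Beside that fall of YBX1, IGF2BP1, its partner on mRNA, was lower on average in both lines, by less, and was not called. SCC15 −YBX1 read 8.21, 8.47 and 8.30, overlapping the +YBX1 libraries, and the log2 change was -0.31 (95% interval -0.92 to 0.30, adjusted p = 1.00, limma). SCC25 −YBX1 read 5.57, 4.28 and 5.58, with replicate 2 apart from the others, and the change was -0.52 (95% interval -1.14 to 0.09, adjusted p = 1.00, limma). Without replicate 2 of SCC25 −YBX1 that change was -0.09. In that library the 10 most abundant genes held 16.2% of reads, the highest share of the 15 libraries, and its part in the change was not tested otherwise. By replicate number IGF2BP1 was lower in 3 of 3 pairs in SCC15 and in 2 of 3 in SCC25, and HMGA1 in 3 of 3 in SCC25. Pairing by number was not clear for each library. The share of all genes lower in 3 of 3 was not counted, so nothing is read from these pairs. Within libraries the ratio of IGF2BP1 to IGF2BP2 was -2.40, -3.06 and -2.50 in SCC25 −YBX1, a mean difference of -0.54 (SE 0.24). All lay below the +YBX1 libraries, but narrowly, since the lowest of those stood at -2.36. In SCC15 this ratio overlapped between the groups. The ratios of IGF2BP3 to IGF2BP2, HMGA2 to HMGA1 and HMGA2 to IGF2BP2 overlapped in both lines. How often ratios of other genes separate was not counted.

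IGF2BP2 read 6.61, 5.86 and 6.04 in SCC15 −YBX1 and 7.97, 7.34 and 8.09 in SCC25 −YBX1. Its change was 0.02 in both lines, with 95% intervals of -0.52 to 0.56. IGF2BP3 read 5.19, 4.94 and 4.99 in SCC15 −YBX1 and 4.38, 4.50 and 4.56 in SCC25 −YBX1. Its changes were 0.14 (95% interval -0.32 to 0.60) and 0.05 (95% interval -0.40 to 0.51). In each line the −YBX1 and +YBX1 libraries of both genes overlapped.

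LIN28B read 2.96, 3.40 and 3.36 in SCC15 −YBX1, overlapping the +YBX1 libraries, with a change of 0.12 (95% interval -1.21 to 1.45). SCC25 −YBX1 held 1 read in its 3 libraries, so no change could be measured there. Between the doxycycline-treated lines, 189 reads in SCC15 against 1 in SCC25 gave a ratio of 144 (exact 95% counting interval 25.6 to 5737). These are the same cell pools as in the +YBX1 groups, and LIN28B was chosen with its levels in all groups known.

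HMGA1 read 8.93, 8.99 and 9.04 in SCC15 −YBX1 and 9.22, 9.75 and 9.95 in SCC25 −YBX1, with changes of 0.05 (95% interval -0.37 to 0.46) and -0.22 (95% interval -0.64 to 0.20). HMGA2 read 7.69, 7.75 and 7.67 in SCC15 −YBX1 and 9.72, 9.21 and 10.35 in SCC25 −YBX1, with changes of -0.15 (95% interval -0.70 to 0.40) and -0.16 (95% interval -0.70 to 0.39). For both genes the −YBX1 and +YBX1 libraries overlapped in each line.

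In all, 0 of the 6 members were called in SCC15, in SCC25 or in the difference between the knockdown effects, where limma called 0.00%, 0.00% and 0.00% of all genes and 294 genes had an unadjusted p under 0.05 in the last. No member had an unadjusted p under 0.05. The adjusted p of every member was 1.00 in each comparison. Libraries without overlap were found for 0 members in SCC15, beside 7.04% of all genes, and for 0 in SCC25, beside 7.31%. IGF2BP1 in SCC15 became the 1 member without overlap under quantile normalization. The difference of the 2 knockdown effects, SCC25 minus SCC15, was -0.21 for IGF2BP1 (95% interval -1.08 to 0.65) and 0.00 for IGF2BP2 and -0.01 for HMGA2, with intervals reaching from -0.78 to 0.77. These p-values do not show that the genes stayed the same, and the intervals give the sizes of change that the data leave possible.

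**Figure D3:**
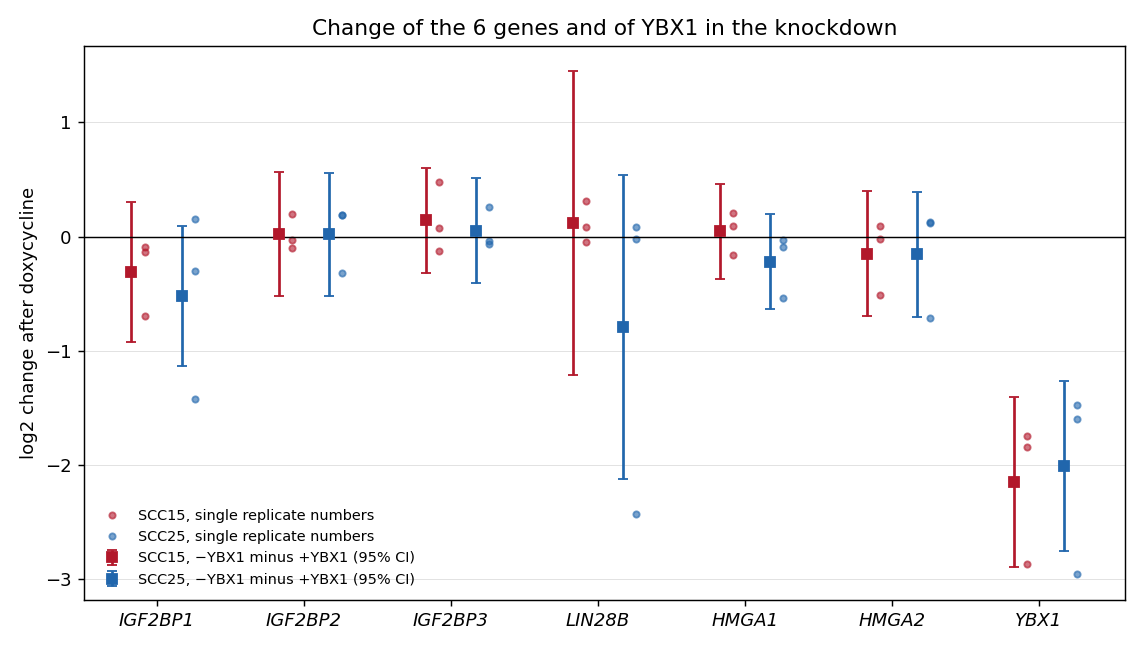
Change of the 6 genes and of YBX1 after doxycycline (log2, −YBX1 minus +YBX1) in SCC15 and SCC25, with squares and bars for the limma estimate and its 95% interval and dots for the single replicate numbers. YBX1 lies at about -2 in both lines, and the interval of every member includes 0.

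Over the 5 groups, the order of IGF2BP1 means was SCC15 +YBX1, SCC15 −YBX1, SCC25 +YBX1, SCC25 −YBX1 and OKF6. The groups of the same line overlapped, and the steps from SCC15 to SCC25 and from SCC25 to OKF6 did not. For IGF2BP2 the SCC25 groups and OKF6 overlapped in the order and stood above the SCC15 groups without overlap. HMGA2 fell from the SCC25 groups by 1.18 to OKF6, and by 0.72 from OKF6 to SCC15 +YBX1. For HMGA1 the SCC25 groups came first, without overlap with the SCC15 groups, while the wide OKF6 range overlapped SCC25 −YBX1 and both SCC15 groups. For IGF2BP3 OKF6 came first, without overlap with SCC15 −YBX1 in the next place, while the neighbours among the cancer groups overlapped.

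**Figure D4:**
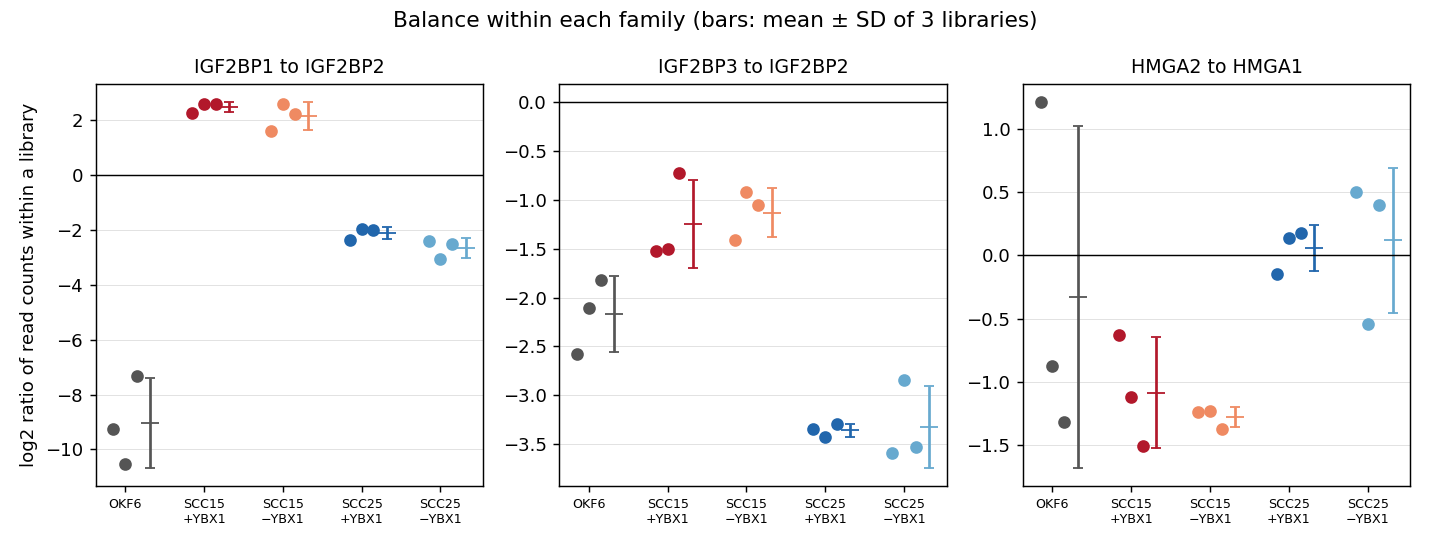
Log2 ratio of the reads of 2 paralogs within each library, by group, with the mean and SD of 3 libraries beside the points. The ratio of IGF2BP1 to IGF2BP2 is higher in both SCC15 groups than in both SCC25 groups and OKF6.

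The genes whose pattern was nearest to a member were sought over the 15 libraries, by the root mean square difference of log2 CPM after each gene was centred on its own mean, among 6464 or 6465 genes above the median level. For IGF2BP1 these were TBX1 (0.79), GAL (0.96) and UCHL1 (1.00), where the median gene stood at 3.67. UCHL1, a ubiquitin hydrolase of neurons, had means of -2.21 in OKF6, 8.34 in SCC15 +YBX1 and 6.48 in SCC25 +YBX1. For LIN28B they were ATP6V0E2 (0.76), CAMK1 (0.97) and CBS (1.04), against 3.04 for the median gene. The 3′ ends of ATP6V0E2 and CAMK1 overlap genes on the opposite strand, and all 86 pieces of the 3′ end of CBS occur elsewhere in hg38. For HMGA2 they were ITGB5 (0.23), PRSS23 (0.27) and CNN2 (0.28), against 1.05 for the median gene. ITGB5, an integrin subunit, had means of 7.86 in SCC25 +YBX1, 6.46 in OKF6 and 5.56 in SCC15 +YBX1. These distances are descriptions over libraries that share lines.

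The other genes of the let-7 pathway were taken from written lists. These lists, and those that follow, were chosen with earlier results of these data known. Most genes named from them were picked for large differences that passed the threshold. Their adjusted p-values between lines are therefore a description and not a test. Of 19 genes of let-7 and small RNA processing, 18 were measured. Between SCC15 and OKF6, 4 were higher and 1 lower (27.8%, beside 50.3% of all genes), with a median log2 difference of 0.02 beside 0.10 for all genes. Those above the median level were DGCR8, the partner of Drosha (1.17, limma adjusted p = 0.00869), the exporter XPO5 (1.07, limma adjusted p = 0.00085) and DROSHA (0.73, limma adjusted p = 0.0178). TNRC6B, a scaffold of the silencing complex, was lower (-1.43, limma adjusted p = 0.0114), and DICER1 stood at 5.42 in SCC15 and 5.46 in OKF6. Between SCC25 and OKF6, 2 were higher and 2 lower (22.2% beside 30.2%, median 0.27 beside 0.13), and between SCC15 and SCC25 2 and 2 (22.2% beside 43.6%, median -0.01 beside -0.01). TUT7, which tags let-7 precursors with uridine, was among those lower in SCC15 than in SCC25 (-0.87, limma adjusted p = 0.0244). TUT4, the other enzyme of that reaction, named after its values were seen, lay the other way, with means of 3.61 in SCC15 +YBX1 and 1.05 in SCC25 +YBX1 and no overlap between their libraries.

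Among 6 transcripts that host let-7 genes, 3 were measured. MIRLET7BHG, the host of the let-7a-3 and let-7b genes, had 15 to 51 reads per library in OKF6, 13 to 34 in SCC25 +YBX1 and 0 to 1 in SCC15 +YBX1. MIR100HG, the host of let-7a-2, had 0 reads in every SCC15 +YBX1 library, 0 to 8 in OKF6 and 32 to 63 in SCC25 +YBX1. Since these counts are close to 0 in SCC15, no median is given for the list. Between SCC15 and SCC25, 2 of the 3 were lower and 0 higher (66.7% beside 43.6% of all genes), and between SCC15 and OKF6 1 was lower (33.3% beside 50.3%). Between SCC25 and OKF6 1 was higher (33.3% beside 30.2%). HUWE1, whose introns hold let-7f-2 and miR-98, passed in no comparison and had means of 6.21, 6.23 and 6.14 in OKF6, SCC15 +YBX1 and SCC25 +YBX1. SCC15 had the most reads of LIN28B and the fewest of MIRLET7BHG, and a link between them was not tested. MIR100HG was also low in OKF6, where LIN28B had 0 reads, and it was not called between SCC15 and OKF6. Whether mature let-7 differed was not measured. MIRLET7BHG and MIR100HG were named after their values were seen.

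Of 27 further let-7 targets, 25 were measured, and they went both ways. Between SCC15 and SCC25, 5 were higher and 8 lower (52% beside 43.6%), with a median log2 difference of -0.00 beside -0.01 for all genes. Between SCC15 and OKF6, 5 were higher and 9 lower (56% beside 50.3%, median -0.42 beside 0.10), and between SCC25 and OKF6, 3 and 5 (32% beside 30.2%, median -0.13 beside 0.13). Cell cycle genes stood at both ends. The phosphatase CDC25A was above its SCC25 level in SCC15 (2.06, limma adjusted p = 0.00012) and so was the ubiquitin conjugase CDC34 (1.22, limma adjusted p = 0.00847), while the cyclin CCND1 was lower (-6.64, limma adjusted p = 4.01e-07). E2F2, a transcription factor of S phase entry, was higher than in OKF6 in SCC15 (3.44, limma adjusted p = 0.000301) and SCC25 (2.01, limma adjusted p = 0.0166). The kinase CDK6 was lower in both, at -2.69 (limma adjusted p = 5.57e-06) and -1.83 (limma adjusted p = 0.00035). CCND2 was also lower than in OKF6 in both cancer lines, at -3.51 in SCC15 (limma adjusted p = 6.59e-06) and -3.60 in SCC25 (limma adjusted p = 2.92e-05).

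The partners and targets of the IGF2BP proteins came next. Of 9 partners in its ribonucleoprotein, all measured, 4 had higher levels in SCC15 than SCC25 and 0 lower (44.4% beside 43.6%), although the median was -0.16 beside -0.01. They were the mRNA-stabilizing protein ELAVL1 (0.89, limma adjusted p = 0.0372), MATR3 (0.70, limma adjusted p = 0.00957), HNRNPU (0.52, limma adjusted p = 0.0335, named after its value was seen) and the RNA helicase DHX9, which was also lower in SCC25 than in OKF6 (-1.21, limma adjusted p = 0.00141). Against OKF6, 1 was higher and 2 lower in SCC15 (33.3% beside 50.3%, median -0.26 beside 0.10) and 0 higher and 4 lower in SCC25 (44.4% beside 30.2%, median -0.50 beside 0.13). YBX1 was among the lower ones in both, at -2.21 in SCC15 (limma adjusted p = 0.000707) and -1.21 in SCC25 (limma adjusted p = 0.0375), and ELAVL2 was lower at -1.51 (limma adjusted p = 0.000339) and -1.29 (limma adjusted p = 0.00266). Between SCC15 and SCC25 YBX1 did not pass (means 5.55 and 6.55, limma adjusted p = 0.0581), with no overlap between their libraries. The order of mean YBX1 mRNA over the lines was thus the reverse of that of IGF2BP1. For the protein, the paper's western blots found most total YBX1 in SCC15 among the cancer lines, and no constructs are mentioned for those blots. The SCC15 and SCC25 mRNA here came from pools with the constructs and without doxycycline, so the cells may differ. Both cancer lines carried the constructs against YBX1 and OKF6 did not, so line and construct cannot be told apart against OKF6.

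Of 14 other genes that write, erase or read m6A, 13 were measured, with 4 higher and 0 lower in SCC15 than in OKF6 (30.8% beside 50.3%, median 0.03 beside 0.10). In SCC25, 3 were higher and 2 lower than in OKF6 (38.5% beside 30.2%, median -0.05 beside 0.13), and against SCC25, 4 were higher and 0 lower in SCC15 (30.8% beside 43.6%, median 0.60 beside -0.01). The methyltransferase METTL3 was higher than in OKF6 in SCC15 (1.39, limma adjusted p = 0.000429) and in SCC25 (1.13, limma adjusted p = 0.00402). The reader YTHDF3 was higher in SCC15 than in OKF6 (1.26, limma adjusted p = 8.61e-05) and than in SCC25 (0.60, limma adjusted p = 0.0133). YTHDC2, a reader with a helicase domain, was lower in SCC25 than in OKF6 (-1.59, limma adjusted p = 0.0014).

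Of 13 mRNAs known to be bound by IGF2BP proteins, 12 were measured. Between SCC15 and OKF6, 2 were higher and 6 lower (66.7% beside 50.3%, median -0.80 beside 0.10). Between SCC15 and SCC25 the counts were 2 and 5 (58.3% beside 43.6%, median -0.24 beside -0.01), and between SCC25 and OKF6 0 and 2 (16.7% beside 30.2%, median -0.11 beside 0.13). CD44, an adhesion receptor, was lower in SCC15 than in SCC25 by a log2 difference of -8.80 (limma adjusted p = 3.28e-07), and ACTB, the classic zipcode mRNA, by -1.89 (limma adjusted p = 0.000216). MYC stood at 5.64 ± 0.69 (SD, n = 3) in SCC15, 6.62 ± 0.22 (SD, n = 3) in SCC25 and 6.73 ± 0.12 (SD, n = 3) in OKF6. The mean was lowest in SCC15, the line with the most IGF2BP1, and a link was not tested. The SCC15 libraries ran from 5.19 to 6.43 and overlapped those of SCC25, whose lowest stood at 6.38. LEF1, a Wnt transcription factor named after its values were seen, had 69 to 115 reads per library in SCC15 +YBX1 and 0 in OKF6 and SCC25 +YBX1.

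All 8 other high mobility group genes were measured. In SCC15 4 were higher and 0 lower than in OKF6 (50% beside 50.3%, median 0.80 beside 0.10), and against SCC25 4 were higher and 0 lower (50% beside 43.6%, median 0.76 beside -0.01). HMGA1 and HMGA2 levels lay lower in SCC15 than in SCC25, without overlap. HMGB2, a chromatin protein of dividing cells, was lower in SCC25 than in OKF6 (-2.14, limma adjusted p = 4.02e-05), where 1 of the 8 was higher and 1 lower (25% beside 30.2%, median -0.39 beside 0.13). HMGB3, a family member of the embryo and of stem cells, was higher in SCC15 than in SCC25 (1.49, limma adjusted p = 0.00131).

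Of 13 other oncofetal genes, 5 were measured. Between SCC15 and OKF6 1 was higher and 2 lower (60% beside 50.3%, median -0.92 beside 0.10), between SCC25 and OKF6 0 and 1 (20% beside 30.2%, median -0.82 beside 0.13), and between SCC15 and SCC25 2 and 2 (80% beside 43.6%, median 0.21 beside -0.01). GPC3, a cell surface proteoglycan, was like LIN28B read in SCC15, with 93 to 163 reads per library in SCC15 +YBX1, 0 in OKF6 and 0 to 1 in SCC25 +YBX1. PEG10, a retroviral-like imprinted gene, had its fewest reads there, with 15 to 22 reads in SCC15 +YBX1, 121 to 370 in OKF6 and 313 to 497 in SCC25 +YBX1. GPC3 and PEG10 were named after their values were seen. TPBG, the trophoblast glycoprotein, was lower in SCC15 than in SCC25 (-3.13, limma adjusted p = 5.61e-05). In the knockdown, 0 genes of any of these lists were called in either line, as of all genes.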

How the data were processed

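Libraries were QuantSeq 3′ FWD preparations of OKF6, SCC15 and SCC25. Cutadapt served the authors for trimming, HISAT2 for alignment to hg38, featureCounts for counting per gene and limma for filtering and normalisation. The strand setting of the counting is not given in the sources used here. The deposited values are log2 CPM with 0.5 reads added over a normalized library size, in 1 table of the lines and 1 of the knockdown, both with 12995 genes. The 6 libraries in both tables differed by at most 5e-08. Within a tolerance of 0.05 reads, 100% of the values gave whole reads, between 4075290 and 6118501 per library. The authors' filter could not be undone. Replicates differed by more than counting noise (chi-square per degree of freedom 3.89 to 75.6), so none was counted as a copy.

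The members and the gene lists were chosen with earlier results of these data known. Named in the text are the members, YBX1, per list and comparison of lines at most 3 genes higher and 3 lower with the largest log2 difference among those past the threshold, without overlap and above the median level, and per member spanning over 2 log2 units the 3 genes nearest in pattern. Genes named after their values were seen are marked in the text, and DICER1, HUWE1 and MYC were likewise named with their values seen.

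Groups were compared on the deposited log2 values with limma 3.58.1 in R 4.3.3 (lmFit, eBayes with a variance trend, all groups of a table), two-sided, adjusting p by Benjamini-Hochberg over the 12995 genes, with 0.05 as threshold. The code was tested on simulated data. Results were recomputed with voom weights on the recovered reads, with 2 reads added in place of 0.5, after quantile normalization or with library medians set equal, on genes above the first quartile, with robust empirical Bayes, without the trend, on the compared groups alone, with a replicate block, and with each library left out. The labels number replicates 1 to 3 in each group. Deviations of same-numbered −YBX1 and +YBX1 libraries from their group means were correlated over 6497 genes. The values were 0.51, 0.35 and 0.22 in SCC15 and 0.14, 0.46 and 0.40 in SCC25. In SCC15, −YBX1 replicate 3 correlated more with +YBX1 replicate 2 (0.32). In SCC25, −YBX1 replicate 1 correlated more with +YBX1 replicate 3 (0.24). The numbers may thus pair some of these libraries, but pairing was not clear for each, and the main fit did not use it. Between lines the correlations had mixed signs.

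Mature microRNAs came from RefSeq. Canonical 3′ UTRs were those after the stop codon in GENCODE 44. Pieces of 75 bases, every 5 bases over the last 500 bases of a transcript, were mapped to hg38 with minimap2 2.31. Protein sequences were not used here. Python 3.11.15 with matplotlib 3.10.9 drew the figures.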

Additional observations from a re-analysis of the deposited data

Results flagged for a closer look

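The difference of HMGA2 from OKF6 took opposite signs in the cancer lines. It was -0.72 log2 units in SCC15 +YBX1, where every library lay below every OKF6 library, and 1.34 in SCC25 +YBX1, where every library lay above. HMGA2 was chosen with its levels known and the comparisons share the OKF6 libraries, so the difference between the lines was not tested against them. With library medians set equal SCC15 and OKF6 overlapped, at -0.56.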

How the results depend on the processing

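Of 594 log2 changes of the members and YBX1 recomputed under the alternatives, 550 kept their direction and their side of the threshold. The replicate block changed no call of a member: 0 members were called in either line or in the interaction with the block in the fit, as without it, and IGF2BP1 kept changes of -0.31 and -0.52 (SE 0.28 for each). Members without overlap between SCC15 and OKF6 went from 5 to 3 with library medians set equal, between SCC15 and SCC25 from 5 to 6 under both scalings, and between SCC15 −YBX1 and +YBX1 from 0 to 1 under quantile normalization. Setting medians equal moved the median of all genes by 0.16 in SCC15 against OKF6 and 0.15 in SCC15 against SCC25, and quantile normalization by -0.18 in SCC25 against OKF6 and 0.18 in SCC15 against SCC25. Values near 0 turned. With library medians set equal, IGF2BP2 turned to -0.0051 in the SCC15 knockdown, and IGF2BP2 and HMGA2 to 0.017 and 0.013 in the difference of the knockdown effects. Under quantile normalization IGF2BP2 in SCC25 against OKF6 turned to -0.12. The causes were not tested.

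With 1 library left out, members called ranged from 3 to 5 (SCC15 against OKF6), from 3 to 4 (SCC25 against OKF6) and stayed at 4 (SCC15 against SCC25) and at 0 in the knockdown, although 6 genes of the table were called in SCC25 without −YBX1 replicate 2. Values that turned in this way ranged as follows. Against OKF6, HMGA1 in SCC15 ran from -0.52 to 0.45 and IGF2BP2 in SCC25 from -0.028 to 0.36. In the SCC15 knockdown, the ranges were -0.20 to 0.27 for IGF2BP2, -0.077 to 0.25 for IGF2BP3, -0.0029 to 0.28 for LIN28B, -0.033 to 0.18 for HMGA1 and -0.25 to 0.025 for HMGA2. In the SCC25 knockdown they were -0.12 to 0.25 for IGF2BP2, -0.043 to 0.14 for IGF2BP3 and -0.45 to 0.12 for HMGA2. For the difference of the effects they were -0.43 to 0.22 for IGF2BP1, -0.25 to 0.23 for IGF2BP2, -0.20 to 0.13 for IGF2BP3 and -0.30 to 0.27 for HMGA2. With 0 to 6 reads per library, LIN28B outside SCC15 and IGF2BP1 in OKF6 were too low for changes to be measured there.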
